A study of Homo sapiens with 3 samples.

Results

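Transcripts of myeloid granule proteins were followed in THP-1, a human acute monocytic leukemia cell line driven by the MLL-AF9 fusion, during treatment with GSK-LSD1, an inhibitor of the histone demethylase LSD1. The group holds 9 genes, each looked up by its UniProt accession. They are MPO (P05164), ELANE (P08246), PRTN3 (P24158), CTSG (P08311), AZU1 (P20160), LYZ (P61626), SRGN (P10124), SERPINB1 (P30740) and DEFB1 (P60022). The gene symbols come with these accessions, since the count table itself pairs no accession with a gene. The group was chosen by function with the values of these same libraries in view, DEFB1 for its fall after 24 h among them, so its values are a description and carry no test. Of the 9 accessions, 8 were found as rows among the 213543 features of the table, 7 had a count in any library, 6 reached at least 10 counts in a library and 4 reached at least 50. No row was found under the SERPINB1 accession.

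RNA-seq was performed on untreated wild-type cells (0 h) and on cells treated with 0.2 µM GSK-LSD1 for 8 h or 24 h, to follow induced monocytic differentiation. Each time point is 1 library of 1 cell line, so every difference below compares libraries and has no replicate check. The only untreated library is that of 0 h, so treatment and time in culture cannot be told apart. Total counts were 1475938 in untreated cells, 1310912 after 8 h and 1444011 after 24 h. Levels are given as counts and as CPM, TMM-scaled counts relative to 1e6 counts of a library. A row with no count in a library allows up to 3 counts, which is 1.95 CPM in untreated cells, 2.34 after 8 h and 2.11 after 24 h. All intervals are 95% intervals that cover counting error only, since each time point is 1 library. How PCR copies of a molecule were treated is not given in the sources used here. Copies counted as separate reads would make these intervals too narrow. In these bulk libraries fewer cells of a type and less RNA per cell cannot be told apart.

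Myeloid progenitors pack antimicrobial proteins and proteases into primary granules at an early stage of maturation. Neutrophil elastase (ELANE), proteinase 3 (PRTN3) and cathepsin G (CTSG) are serine proteases, azurocidin (AZU1) is their relative without protease activity, and myeloperoxidase (MPO) makes hypochlorous acid. Serglycin (SRGN) is the proteoglycan on which granule proteins are stored, and SERPINB1 is an intracellular inhibitor of the granule proteases. Transcription of the protease genes is known to cease as myeloid cells mature, whereas lysozyme (LYZ), which cleaves the cell wall of bacteria, remains a major product of monocytes and macrophages. DEFB1 encodes a beta-defensin, a small antimicrobial peptide best known from epithelia and also made by monocytes.

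After 24 h LYZ was 2.93-fold higher and DEFB1 4.66-fold lower than in untreated cells, while ELANE, the member with the most counts, and SRGN stayed within 1.28-fold. LYZ and DEFB1 thus lay in opposite directions, and DEFB1 was included with its fall in view. Of the 6 members with at least 10 counts in a library, 1 was higher and 1 lower by a log2 fold change of more than 1 after 24 h relative to untreated cells, beside 6.19% of 9609 features higher and 5.58% lower. From 8 h to 24 h the members again held 1 higher and 1 lower, beside 4.03% and 1.97% of features. After 8 h relative to untreated cells, 0 members passed in either direction, beside 4.51% of features higher and 6.02% lower. The median log2 fold change of the 6 members was 0.09 after 8 h and -0.13 after 24 h relative to untreated cells, and it was -0.01 over all features in both comparisons. The members that passed the filter did so on their own counts, so these shares carry no test.

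**Figure D1:**
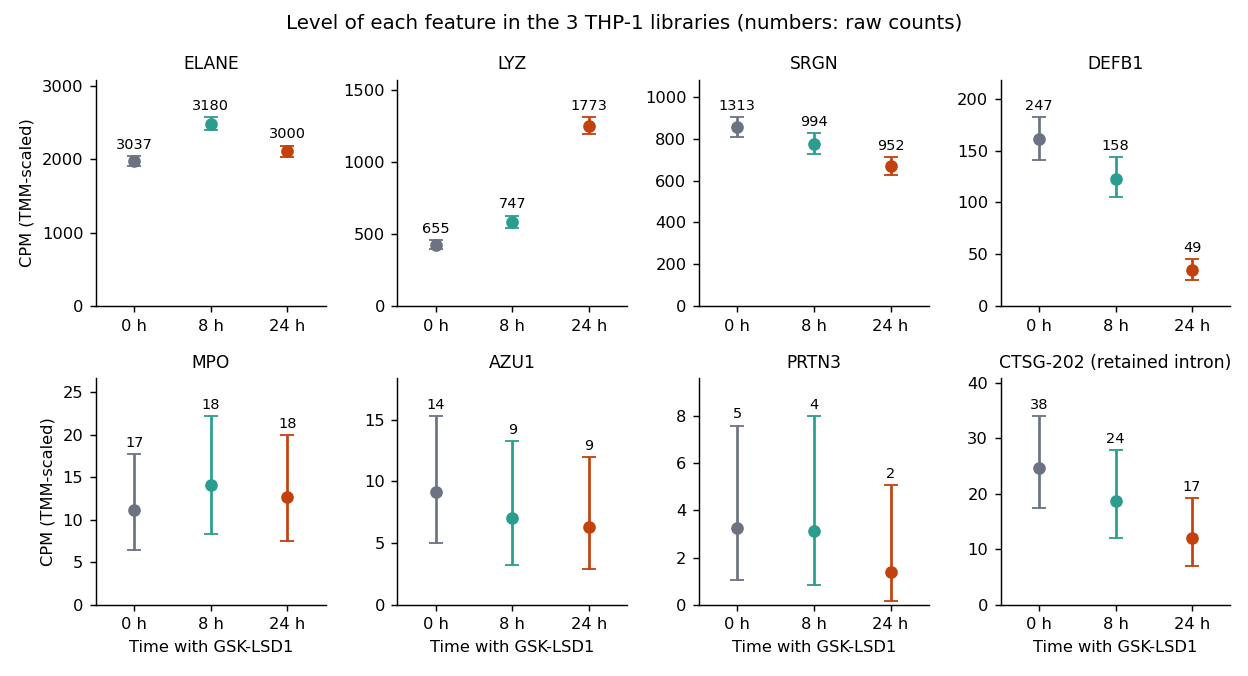
CPM (vertical axes, starting at 0, TMM-scaled) of 7 member accessions and of the CTSG retained-intron transcript in the 0 h, 8 h and 24 h libraries, with 1 library per point, exact 95% Poisson intervals as bars and raw counts above them. LYZ is highest after 24 h with 1773 counts, DEFB1 lowest after 24 h with 49, and MPO, AZU1 and PRTN3 stay at 18 counts or fewer.

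LYZ is encoded on chromosome 12 (GRCh38, 69348381 to 69354234, forward strand). Its accession had 655 counts in untreated cells, 747 after 8 h and 1773 after 24 h. This is 426 CPM in untreated cells (exact Poisson interval 394 to 460), 583 CPM after 8 h (542 to 627) and 1248 CPM after 24 h (1191 to 1308). The 3 intervals do not overlap, and most of the difference lay after 8 h. The log2 ratio was 0.45 after 8 h relative to untreated cells (exact interval 0.30 to 0.61) and 1.10 from 8 h to 24 h (0.97 to 1.22), which sum to 1.55 after 24 h relative to untreated cells (1.42 to 1.68). Among the 4218 features that reached 50 counts in any library, LYZ ranked 500 from the top by log2 fold change after 8 h and 47 after 24 h relative to untreated cells, and 20 from 8 h to 24 h.

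What the LYZ row can count is set by the exons of the gene. GENCODE v44 annotates 3 protein-coding LYZ transcripts, and 821 of the 1490 exon bases of the canonical transcript LYZ-201 lie in no other LYZ transcript. They comprise the first few bases of the transcript, the later part of the last exon and the whole of exon 3. Exon 3 is a coding exon of 79 bases that is absent from LYZ-202 and LYZ-203. Its reference sequence at chr12:69352220-69352298 is shown since it tells LYZ-201 from the shorter transcripts.
LYZ exon 3: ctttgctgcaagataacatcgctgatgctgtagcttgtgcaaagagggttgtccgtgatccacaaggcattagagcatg

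A long non-coding RNA on the opposite strand, ENST00000548900, overlaps the last LYZ exon with all of its 599 exon bases. It had 3 counts in untreated cells, 4 after 8 h and 14 after 24 h, named here after they were seen, and its log2 ratio after 24 h relative to untreated cells was 2.34 (0.49 to 4.78). The counts of this antisense transcript thus moved in the direction of LYZ but came to no more than 14 beside the 1773 of LYZ. Whether counting used the strand is not given in the sources used here, so reads of LYZ and of its antisense partner cannot be told apart in the shared part.

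DEFB1 lies on chromosome 8 of GRCh38 from 6870592 to 6877936, on the reverse strand. Its accession had 247 counts in untreated cells, 158 after 8 h and 49 after 24 h. The interval of its level was 141 to 182 CPM in untreated cells, 105 to 144 CPM after 8 h and 25.5 to 45.6 CPM after 24 h, so that the interval of the 24 h library lies below both others while those of 0 h and 8 h overlap slightly. The log2 ratio was -0.38 after 8 h relative to untreated cells (-0.68 to -0.09), -1.84 from 8 h to 24 h (-2.33 to -1.37) and -2.22 after 24 h relative to untreated cells (-2.69 to -1.77). Like LYZ, DEFB1 differed mainly after 8 h, but in the opposite direction. Of the 4218 features that reached 50 counts in any library it ranked 583 from the bottom after 8 h relative to untreated cells and 2 from the bottom in both comparisons of the 24 h library.

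DEFB1 is the simplest gene of the group, with 1 annotated transcript of 375 exon bases. The lncRNA gene GS1-24F4.2 on the opposite strand covers 47 of these bases with a transcript that had 0 counts in every library.

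**Figure D2:**
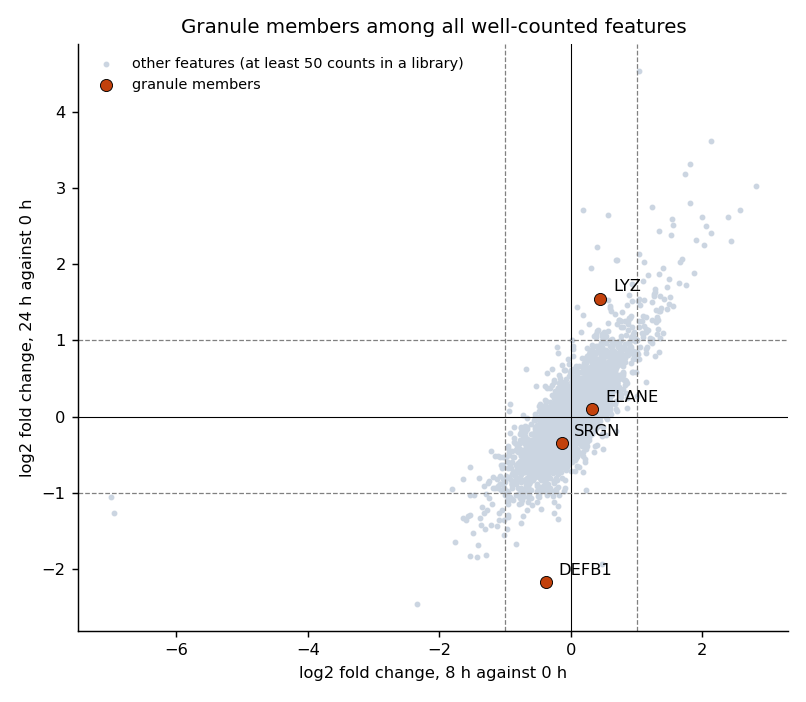
Log2 fold change after 24 h relative to untreated cells (vertical) and after 8 h relative to untreated cells (horizontal) for the 4218 features that reached 50 counts in any library, with the 4 members among them in orange and dashed lines at a log2 fold change of 1 in each direction. LYZ lies at 0.45 and 1.55 and DEFB1 at -0.38 and -2.17 (log2 fold changes with a prior count). Both lie between the vertical dashed lines, inside the threshold after 8 h. Both axes share the 0 h library.

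ELANE lies on chromosome 19 from 851014 to 856247 and had 3037 counts in untreated cells, 3180 after 8 h and 3000 after 24 h. It took 0.206%, 0.243% and 0.208% of the counts of these libraries. The level was 1977 CPM in untreated cells (1907 to 2048), 2483 CPM after 8 h (2398 to 2571) and 2112 CPM after 24 h (2037 to 2189), highest after 8 h. The log2 ratio was 0.33 after 8 h relative to untreated cells (0.26 to 0.40), 0.10 after 24 h relative to untreated cells (0.02 to 0.17) and -0.23 from 8 h to 24 h (-0.31 to -0.16). Counting error is small at this depth, and none of the 3 ratios passed the threshold. With library sizes set by total counts the ratio after 24 h was 0.01 (-0.06 to 0.09). Whether its interval includes 0 thus depends on the scaling. Elastase transcripts thus did not show the 24 h difference of LYZ or DEFB1 in these libraries.

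SRGN lies on chromosome 10 from 69088103 to 69104805 and had 1313 counts in untreated cells, 994 after 8 h and 952 after 24 h. The level was 855 CPM in untreated cells (809 to 902), 776 CPM after 8 h (729 to 826) and 670 CPM after 24 h (628 to 714). The intervals of 0 h and 24 h do not overlap, whereas those of 0 h and 8 h do. The log2 ratio was -0.14 after 8 h (-0.26 to -0.02) and -0.35 after 24 h relative to untreated cells (-0.47 to -0.23), inside the threshold in both. A second SRGN transcript without a defined coding sequence, SRGN-202, had 0 counts in every library, and 0 of its 802 exon bases are private to it.

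**Figure D3:**
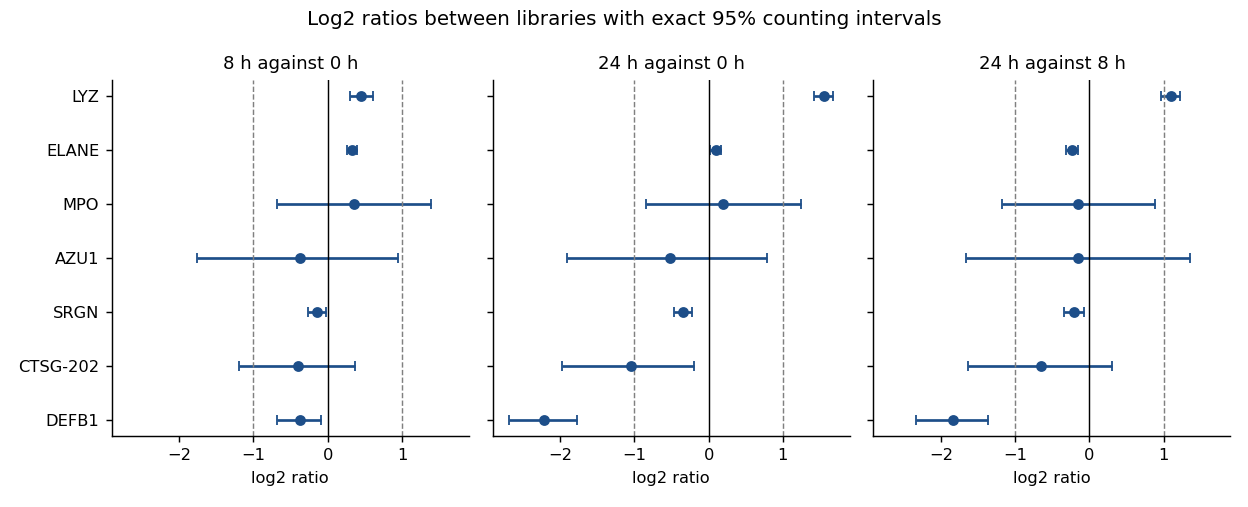
Log2 ratios between the libraries of each pair of time points (horizontal axes) for 6 member accessions and the CTSG retained-intron transcript, with exact 95% counting intervals as bars and dashed lines at 1 in each direction. LYZ lies above 1 and DEFB1 below -1 in both comparisons of the 24 h library, and the intervals of MPO and AZU1 include 0 in every panel.

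The remaining granule proteins had few counts under their accessions. MPO, on chromosome 17 from 58269855 to 58280935, had 17 counts in untreated cells, 18 after 8 h and 18 after 24 h. Its log2 ratio was 0.35 after 8 h (-0.69 to 1.39) and 0.20 after 24 h relative to untreated cells (-0.84 to 1.24). AZU1, on chromosome 19 from 825097 to 832018, had 14, 9 and 9 counts in the same order, with a log2 ratio of -0.52 after 24 h relative to untreated cells (-1.91 to 0.79). PRTN3, its neighbour from 840999 to 848175, had 5, 4 and 2 counts and a log2 ratio of -1.21 after 24 h relative to untreated cells (-4.60 to 1.40). All of these intervals include 0, so a change of MPO, AZU1 or PRTN3 was not detectable at this depth. The accession of CTSG, a gene on chromosome 14 from 24573518 to 24576250, was listed at 0 in each library.

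The private parts of the annotated transcripts were also looked up. In the canonical transcript of MPO, 451 of 3216 exon bases lie in no other MPO transcript. The numbers are 69 of 907 for AZU1, 71 of 987 for PRTN3 and 4 of 914 for CTSG. SRGN, with many more counts, has 415 private bases of 1217. ELANE-201 has 0 private bases of 909, but both ELANE transcripts are protein-coding and neither has a feature under a transcript identifier. How reads on bases shared by several features were counted is not given in the sources used here, and its part in the low counts was not tested. Levels were therefore not compared between genes.

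**Figure D4:**
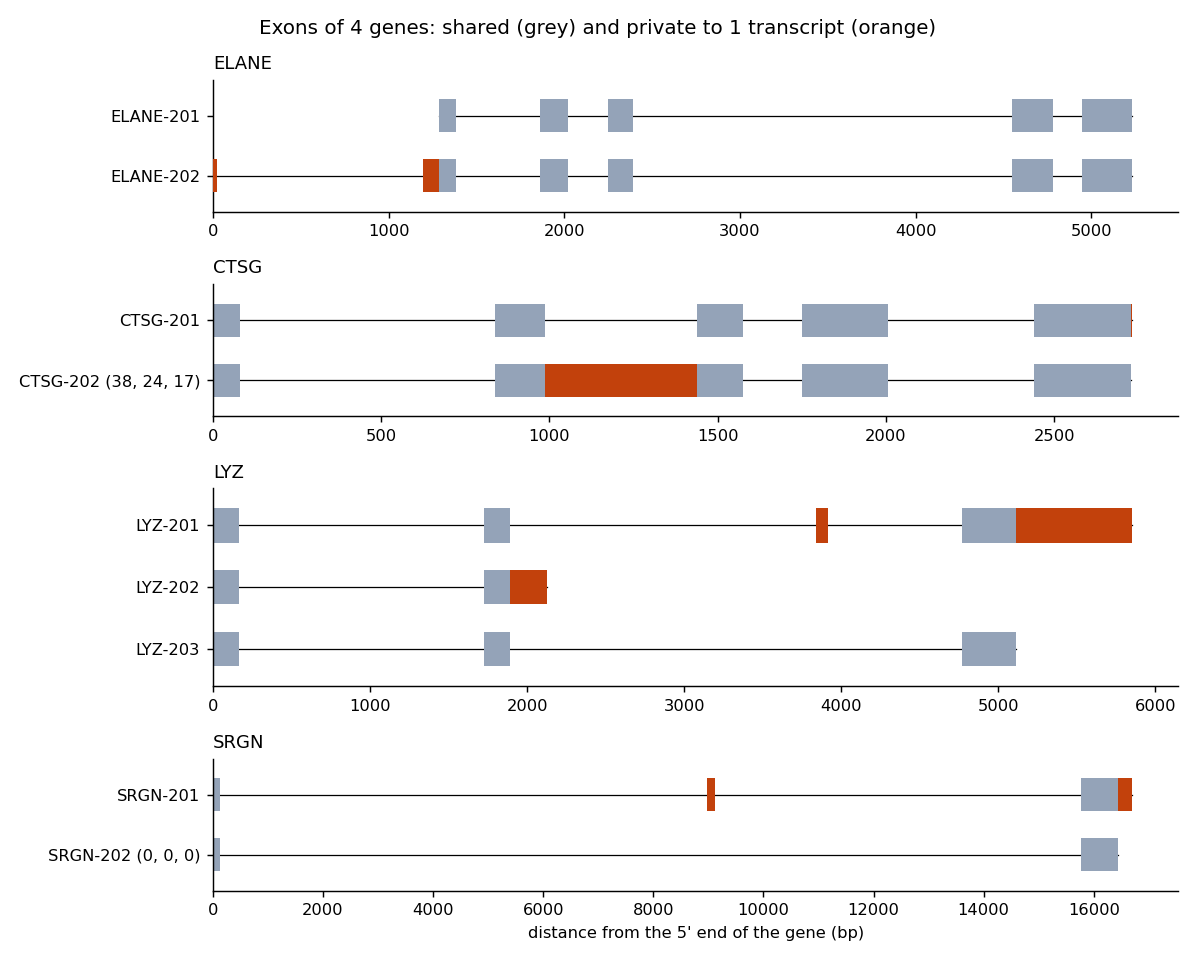
Exons of the annotated transcripts of ELANE, CTSG, LYZ and SRGN along the distance from the 5′ end of the gene in bp, with bases shared between transcripts of the gene in grey and bases private to 1 transcript in orange. Counts of the 0 h, 8 h and 24 h libraries stand in brackets where a transcript has a feature of its own, and the private part of CTSG-202, with 38, 24 and 17 counts, is the retained intron.

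Counts of CTSG appeared under another feature. CTSG-202 (ENST00000552252) is a retained-intron transcript, and its 454 private bases are the intron between exons 2 and 3 of the coding transcript CTSG-201. It had 38 counts in untreated cells, 24 after 8 h and 17 after 24 h and is named here after these were seen. The intervals of its level, 17.5 to 34.0 CPM in untreated cells and 6.97 to 19.2 CPM after 24 h, overlap. The log2 ratio was -0.40 after 8 h relative to untreated cells (-1.20 to 0.37), where the interval includes 0, and -1.05 after 24 h relative to untreated cells (-1.97 to -0.19). With the prior count its log2 fold change did not pass the threshold. The 1080 tested features of the retained-intron class had -0.17 as their median fold change on the log2 scale after 24 h relative to untreated cells, and 11.5% of them were lower by more than 1. Only 4 of the 914 exon bases of CTSG-201 lie outside CTSG-202, and how shared reads were counted is not given. Counts of CTSG-202 therefore cannot be assigned to the retained intron or to the spliced CTSG mRNA. The ends of the intron on chromosome 14 are shown because the intron is what sets CTSG-202 apart, with the splice donor and acceptor dinucleotides in capitals. Both are read on the reverse strand of GRCh38, the start from chr14:24575205-24575264 and the end from chr14:24574811-24574870.
CTSG intron start: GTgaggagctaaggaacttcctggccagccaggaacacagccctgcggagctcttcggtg
CTSG intron end: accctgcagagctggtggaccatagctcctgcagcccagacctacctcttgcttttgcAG

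Transcripts of the protease inhibitor SERPINB1, on chromosome 6 from 2832332 to 2841959, were present as 4 features without a defined coding sequence. The transcript ENST00000476896 had 3 counts in untreated cells, 1 after 8 h and 1 after 24 h, and the other 3 had 0 in each library. No ratio was taken, since these counts are at or under the limit that a count of 0 allows.

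AZU1, PRTN3 and ELANE stand side by side on chromosome 19, followed by CFD, which encodes the serine protease complement factor D. CFD had 170 counts in untreated cells, 111 after 8 h and 169 after 24 h, with a log2 ratio of -0.35 after 8 h (-0.71 to 0.00) and 0.10 after 24 h relative to untreated cells (-0.21 to 0.42). In a list of 15 genes around this cluster, 5 reached 10 counts in any library. Among them 0 passed the threshold in any comparison, beside 1.97% to 6.19% of all features in each direction and comparison. Their median log2 fold change was -0.20 after 24 h relative to untreated cells, beside -0.01 over all features. Of these, ARID3A, a transcription factor gene with 496, 384 and 398 counts, had a log2 ratio of -0.20 (-0.40 to -0.01). A further 8 of the 15 were listed at 0 throughout. They include PTBP1, a splicing regulator that most cells use and that is named here after its value was seen, so an accession listed at 0 does not show that the RNA was absent.

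The RefSeq promoter table (GRCh38.p14) held 4 of the 9 members, PRTN3, CTSG, AZU1 and SERPINB1, and held no entry for MPO, ELANE, LYZ, SRGN and DEFB1. The 250 bases before the start of CTSG, PRTN3 and AZU1 are shown so that their motifs can be compared, with matches in capitals. The following motifs were searched on both strands, GAGGAA, a core of sites of the ETS factor PU.1, TTGCNNAA, a core of C/EBP sites, and AACNGTT, a core of MYB sites. GAGGAA was found in 23.4% of 27305 promoters of the same length, TTGCNNAA in 9.13% and AACNGTT in 2.94%. The CTSG promoter held 2 matches to GAGGAA and 0 to the other motifs. PRTN3 held 1 match each to GAGGAA and TTGCNNAA, and AZU1 held 1 to TTGCNNAA. SERPINB1 held 0 matches. The windows are chr14:24576251-24576500 on the reverse strand for CTSG, and chr19:840749-840998 and chr19:827587-827836 on the forward strand for PRTN3 and AZU1.
CTSG promoter: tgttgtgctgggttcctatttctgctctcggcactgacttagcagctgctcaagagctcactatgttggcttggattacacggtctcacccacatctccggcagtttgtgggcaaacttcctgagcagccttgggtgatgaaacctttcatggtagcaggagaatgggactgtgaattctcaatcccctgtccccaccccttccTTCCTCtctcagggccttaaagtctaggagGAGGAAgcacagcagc
PRTN3 promoter: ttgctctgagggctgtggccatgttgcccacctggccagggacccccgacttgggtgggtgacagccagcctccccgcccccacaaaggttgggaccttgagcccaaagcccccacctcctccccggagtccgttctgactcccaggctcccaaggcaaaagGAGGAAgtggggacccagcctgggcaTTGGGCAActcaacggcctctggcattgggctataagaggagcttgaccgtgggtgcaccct
AZU1 promoter: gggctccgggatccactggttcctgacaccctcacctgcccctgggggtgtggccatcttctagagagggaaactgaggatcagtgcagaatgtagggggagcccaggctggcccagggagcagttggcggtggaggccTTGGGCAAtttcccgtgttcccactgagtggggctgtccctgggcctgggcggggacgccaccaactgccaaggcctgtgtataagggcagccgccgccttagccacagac

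Of 11 transcription factors of primary granule genes, 8 reached 10 counts in any library. Of these, 0 passed the threshold in any comparison, beside 1.97% to 6.19% of all features in each direction and comparison. With 8 genes, 0 is near these shares. Their median log2 fold change was 0.11 after 8 h and 0.00 after 24 h relative to untreated cells, beside -0.01 over all features in both. CEBPA, which directs early granulocyte and monocyte development, had 1848 counts in untreated cells, 1716 after 8 h and 1717 after 24 h, a log2 ratio of 0.01 after 24 h (-0.09 to 0.10). GFI1, a repressor that recruits LSD1, had 1558, 1911 and 1827 counts, a log2 ratio of 0.56 after 8 h (0.46 to 0.65) and 0.34 after 24 h (0.24 to 0.44). SPI1, which encodes PU.1, had 69, 87 and 102 counts and a log2 ratio of 0.68 after 24 h (0.22 to 1.14). For CEBPD, with 137, 119 and 183 counts, it was 0.53 (0.20 to 0.86), and for RUNX1, with 1207, 1005 and 941 counts, -0.25 (-0.37 to -0.12). The intervals of CEBPB, with 108, 70 and 81 counts, and IRF8, with 141, 103 and 119, included 0 after 24 h. MYB, CBFB and KLF4 were listed at 0, and are named to account for the list.

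A list of 10 genes held the activator of granule serine proteases and inhibitors of proteases, most of them known for targets other than the granule proteases of the group. Of these, 8 reached 10 counts in any library. After 8 h relative to untreated cells, 1 was higher and 3 lower by more than the threshold, beside 4.51% and 6.02% of all features. After 24 h, 1 was higher and 1 lower, beside 6.19% and 5.58%. From 8 h to 24 h, 2 were higher and 0 lower, beside 4.03% and 1.97%. All 8 had a log2 fold change above 0 in that comparison, and the share of all features above 0 was not taken. Only for CTSC (0.02 to 0.98) and CST3 (0.09 to 0.31) did the interval from 8 h to 24 h exclude 0. The median log2 fold change of the list was -0.17, 0.17 and 0.37 in these comparisons, beside -0.01, -0.01 and 0.00 over all features. SERPINB2, an inhibitor of plasminogen activators, had 164 counts in untreated cells, 45 after 8 h and 60 after 24 h, a log2 ratio of -1.60 after 8 h (-2.11 to -1.12) and -1.34 after 24 h (-1.79 to -0.90). SERPINB9, the inhibitor of granzyme B, had 6, 18 and 33 counts, a log2 ratio of 1.85 after 8 h (0.45 to 3.47) and 2.57 after 24 h (1.30 to 4.12). Both passed the threshold already after 8 h, where LYZ and DEFB1 did not. CST3, the secreted cysteine protease inhibitor cystatin C, had 1083, 1133 and 1445 counts and a log2 ratio of 0.53 after 24 h (0.41 to 0.64). SERPINB8, an inhibitor of furin, had 252, 249 and 318 counts and a ratio of 0.45 after 24 h (0.21 to 0.69). SLPI, a secreted inhibitor of elastase and cathepsin G, had 220, 211 and 263 counts and a ratio of 0.37 (0.11 to 0.64). CTSC, the protease that activates granule serine proteases, had 109, 62 and 97 counts, a log2 ratio of -0.55 after 8 h (-1.03 to -0.09) and -0.05 after 24 h (-0.46 to 0.35). SERPINB6, with 10, 2 and 7 counts, and CST7, with 10, 3 and 9, are named to account for the list. They were the other genes lower after 8 h and the 2 higher from 8 h to 24 h, but at these counts their intervals included 0 in both comparisons. After 8 h the intervals were -5.29 to 0.17 for SERPINB6 and -3.97 to 0.48 for CST7.

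Of 9 genes of granule transport and exocytosis, 4 reached 10 counts in any library. After 8 h relative to untreated cells, 0 were higher and 1 lower by more than the threshold, beside 4.51% and 6.02% of all features. After 24 h relative to untreated cells, 0 passed in either direction, beside 6.19% of all features higher and 5.58% lower. RAB27A, the small GTPase that docks secretory granules at the plasma membrane, had 383 counts in untreated cells, 143 after 8 h and 184 after 24 h. Its log2 ratio was -1.16 after 8 h (-1.45 to -0.88) and -0.94 after 24 h relative to untreated cells (-1.21 to -0.69). SNAP23, a SNARE of exocytosis, had 102, 66 and 55 counts and a log2 ratio of -0.78 after 24 h (-1.28 to -0.29). AP3B1, a subunit of the AP-3 sorting complex, had 459, 482 and 457 counts and a log2 ratio of 0.11 after 24 h (-0.08 to 0.30). The median of the list after 24 h relative to untreated cells was -0.39, beside -0.01 over all features.

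Few of the other granule contents had counts. Of 18 listed, 17 had a row, 13 of these were listed at 0 in every library and 3 reached at least 10 counts. As above, an accession listed at 0 does not show that the RNA was absent. Of the 3, 0 passed the threshold in any comparison, beside 1.97% to 6.19% of all features in each direction and comparison. Their median log2 fold change was 0.20 after 24 h relative to untreated cells, beside -0.01 over all features. RNASE3, the eosinophil cationic protein, had 63 counts in untreated cells, 69 after 8 h and 70 after 24 h and a log2 ratio of 0.27 after 24 h (-0.25 to 0.78). RNASE3 has the close paralog RNASE2, for which no row was found, so reads of the pair are uncertain. CFD, given above, had more counts, with 170, 111 and 169. It belongs both to this list and to that of the chromosome 19 genes, and so enters both medians.

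**Figure D5:**
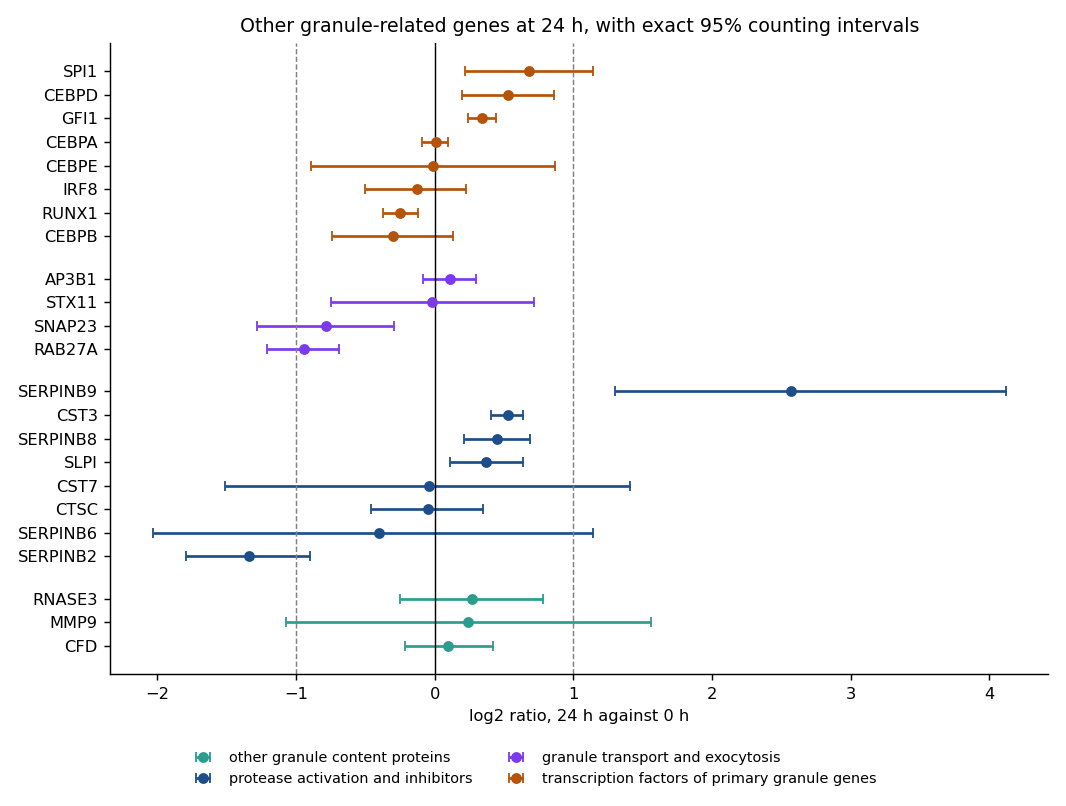
Log2 ratio after 24 h relative to untreated cells (horizontal axis) of the genes of 4 lists with at least 10 counts in a library, coloured by list, with exact 95% counting intervals as bars and dashed lines at 1 in each direction. SERPINB9 lies above 1 at 2.57 and SERPINB2 below -1 at -1.34, and the transcription factors lie between -0.30 and 0.68.

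Markers of the cell line were only partly visible. Of 9 monocytic markers, 5 were listed at 0, and the list held 309 counts in untreated cells, 384 after 8 h and 656 after 24 h, chiefly in CD4 and in the integrin gene ITGAM. ITGAM had 87, 120 and 339 counts, a log2 ratio of 2.08 after 24 h relative to untreated cells. CD4 had 222, 257 and 309 counts, a log2 ratio of 0.59 that did not pass the threshold. The 8 markers of red cells, T and B cells, epithelium, fibroblasts and liver held 0, 4 and 2 counts, and 7 of them were listed at 0. ITGAM, which made up most of the difference in the summed counts, thus moved with LYZ, and its part in the difference of LYZ was not tested. Mitochondrial ribosomal RNA took 0.161% of the counts in untreated cells, 0.000915% after 8 h and 0.0702% after 24 h, and leaving it out of the library sizes kept every member on its side of the threshold.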

How the data were processed

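THP-1 RNA was depleted of ribosomal RNA and sequenced as 1 library per time point, for which the labels give 8 h and 24 h of treatment and the study's methods 8 h. The authors mapped reads to hg38 through Seq2science, and the submitters' processing notes name fastp and STAR. The deposited values are raw counts of reads per feature, named by UniProt accession or Ensembl transcript. Counting tool, annotation, strand setting and treatment of shared reads are not given in the sources used here.

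Groups were taken from the sample labels. Of 9609 features that reached 10 counts in any library, 6837 are accessions and 2772 transcripts. Library sizes were scaled by TMM (edgeR 4.0.16, R 4.3.3). Log2 fold changes used log2 CPM with a prior count of 2, and a feature was called past 1 in either direction. Log2 ratios used no prior count and have exact (Clopper-Pearson) 95% intervals of the binomial share given the sum of both counts. No p-value was computed. Exons came from GENCODE v44, an annotation of the same build. Scripts, tested on simulated counts, used scipy 1.17.1, numpy 2.4.6 and pandas 2.3.3 under Python 3.11.15. Alternatives were DESeq2 1.42.0 size factors, total counts, other filters, prior counts and thresholds, and adding transcripts of the same gene.

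Members and the 5 gene lists were chosen with earlier results of these data known, and symbols were paired with accessions by hand. Named genes are all members and those of the lists with at least 50 counts in a library or past the threshold after 24 h, others being named to account for a list or after their values were seen, and the 3 features nearest in pattern to DEFB1 and LYZ.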

Additional observations from a re-analysis of the deposited data

How the results depend on the processing

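LYZ and DEFB1 kept their direction after 24 h relative to untreated cells under every alternative run. A threshold of 2 left 0 members higher and only DEFB1 lower after 24 h relative to untreated cells, and 0 members from 8 h to 24 h. Requiring counting intervals wholly past 1 left 0 members higher from 8 h to 24 h. With total counts, with or without mitochondrial ribosomal RNA, the log2 ratio of ELANE was 0.24 after 8 h and 0.01 after 24 h relative to untreated cells. The other 56 alternative log2 ratios of members stayed within their main intervals, and 45 alternative medians of lists moved by less than 0.1.

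Numbers of all features past the threshold depended on the filter, the prior count, the threshold and, in their balance, the scaling. The main numbers were 433 higher and 578 lower after 8 h relative to untreated cells, 595 and 536 after 24 h relative to untreated cells, and 387 and 189 from 8 h to 24 h. In the same order, no filter gave 3277, 2319, 2474, 1999, 1865 and 2778, and a minimum of 50 gave 88, 60, 132, 76, 24 and 5. A threshold of 2 gave 39, 29, 94, 32, 20 and 5, while 56, 24, 110, 28, 19 and 5 had their whole counting interval past the threshold. Raising the prior count to 5 gave 255, 294, 401, 294, 156 and 78, and lowering it to 0.5 gave 293 lower from 8 h to 24 h. The stricter filter tested fewer features, and for the other settings the cause was not tested. Total counts in place of TMM gave 358 higher and 670 lower after 8 h and 547 and 631 after 24 h relative to untreated cells, which took the higher share of these features from 42.8% to 34.8% and from 52.6% to 46.4%. The few counts of MPO, AZU1, PRTN3 and CTSG, 18 or fewer per accession, limit what their ratios can show, and why they were few was not tested.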

Other observations

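Features with a pattern near those of DEFB1 and LYZ were sought among 4217 others that reached 50 counts in any library, by the Euclidean distance between pairs of log2 fold changes after 8 h and 24 h relative to untreated cells. These pairs share the 0 h library. The nearest to DEFB1 was Q8N3K9, at a distance of 0.68, with 212 counts in untreated cells, 98 after 8 h and 60 after 24 h. O15360, with 50, 36 and 17 counts, and Q49A88, with 95, 46 and 32, followed at 0.85 and 0.86. The nearest to LYZ were Q14571 at 0.12, with 82, 102 and 222 counts, ENST00000420548 at 0.17, with 20, 26 and 54, and the ZNNT1 transcript ENST00000565617 at 0.19, with 20, 26 and 53. DEFB1 ranked 2 from the bottom after 24 h relative to untreated cells, at the edge of the range. Distances were therefore not compared between DEFB1 and LYZ. The table does not pair these accessions with genes.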
